A study of Mus musculus with 9 samples.

Results

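The comparison set alveolar macrophages without Vhl against alveolar macrophages that carried the same Cre transgene and intact Vhl alleles. It used 6 of the 9 libraries of the series, 3 from knockouts and 3 from Cre controls, and all 12003 genes of the deposited table were members. Groups were taken from the genotype label of each library. Knockouts were Vhl flox/flox with CD11c cre/+, so both Vhl alleles were flanked by loxP sites and were cut in cells that had used the CD11c promoter. Cre controls were Vhl +/+ with CD11c cre/+. Floxed controls, Vhl flox/flox with CD11c +/+, carried no Cre and were kept out of every test. Their 3 libraries are quoted only as values. All mice were on a C57BL/6 background, 8 to 12 weeks old, matched for sex and untreated.

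Cells were washed out of the airways by bronchoalveolar lavage and enriched with magnetic beads against CD11c, and each library was made from poly(A) RNA of a pool of 5 to 7 mice. Dendritic cells also carry CD11c, so they can be cut by this Cre and can be bound by these beads. A pool averages its mice, and the p-values below measure the spread between pools. Values are normalized reads, which are read counts scaled to library size without correction for gene length, so levels of different genes are not compared. Values per library are listed in the order 1, 2, 3, and where 2 sets of values are joined by against, the knockouts come first.

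VHL is the part of a ubiquitin ligase that recognises the alpha chains of HIF, the hypoxia-inducible factors, once prolyl hydroxylases have marked them, which they do when oxygen is present. Without VHL these chains escape degradation and switch on genes for glycolysis, blood vessel growth and low-oxygen metabolism even in normal oxygen. Alveolar macrophages live in the air spaces, clear surfactant lipids and inhaled particles, and renew themselves locally under the growth factor GM-CSF.

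Vhl (ENSMUSG00000033933, chromosome 6, 113623959 to 113631633, GRCm38) stood at 2.02, 2.14 and 2.52 in the knockouts and 24.03, 21.9 and 25.3 in the Cre controls. The knockout libraries all lay below the Cre controls, and the log2 difference was -2.94 (SE 0.106, limma adjusted p = 4.05e-07). Floxed controls held 21.04, 14.9 and 18.4. The other measured parts of the ligase moved little. Cul2, its cullin scaffold, fell slightly (log2 difference -0.23), and Elob, Rbx1 and Nedd8 were not called, with log2 differences of 0.06, 0.05 and -0.02. The Cul2 call was lost under some of the alternative settings.

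The labelled cell type was present in both groups. Siglecf, a sialic acid binding receptor of alveolar macrophages, stood at 325, 343 and 333 in the knockouts and 593, 458 and 554 in the Cre controls. Marco, a scavenger receptor, stood at 1021, 867 and 919 against 363, 590.3 and 632, and Pparg, a lipid-sensing transcription factor, at 237, 199 and 234 against 167, 167 and 162. None of the 35 measured alveolar macrophage markers was at 0 in any of the 6 libraries. Libraries held 18201116 to 25861174 reads. On the principal component that took 78.3% of the variance the knockouts lay at 32.7 to 35.6 and the Cre controls at -37.2 to -28.5. The next component took 9.90% of the variance. Knockout library 1 (12.95) and Cre control library 1 (20.4) lay on its positive side, and the other 4 libraries lay at -11.1 to -6.74. Mitochondrially encoded genes took 1.74% to 2.35% of reads in the knockouts and 3.24% to 3.77% in the Cre controls. In the floxed controls they took 5.52%, 2.97% and 2.64%, so floxed libraries 2 and 3 lay below every Cre control.

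Across the genome, 4520 of 12003 genes (37.7%) were called by limma at an adjusted p under 0.05, 2179 higher (18.2%) and 2341 lower (19.5%) in the knockouts. Most calls were small: 2687 genes were called at under 1.5-fold. At an unadjusted p under 0.05 limma listed 5668 genes (47.2%). Genes called by at least 2-fold numbered 791 (6.59%), 487 higher (4.06%) and 304 lower (2.53%). The largest changes were mostly rises, with 152 genes called higher (1.27%) and 54 called lower (0.45%) by at least 4-fold, and 72 higher (0.6%) and 7 lower (0.0583%) by at least 8-fold. Of genes whose mean reached 500 normalized reads 54.5% were called, against 23% of genes with a mean under 1. The 6141 genes whose knockout and Cre control libraries did not overlap made up 51.2% of the table, so a lack of overlap was common. Each list count below is to be read beside the shares of all genes, 18.2% higher and 19.5% lower. Fold changes are on the log2(value + 1) scale, which understates the change of low genes.

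**Figure D1:**
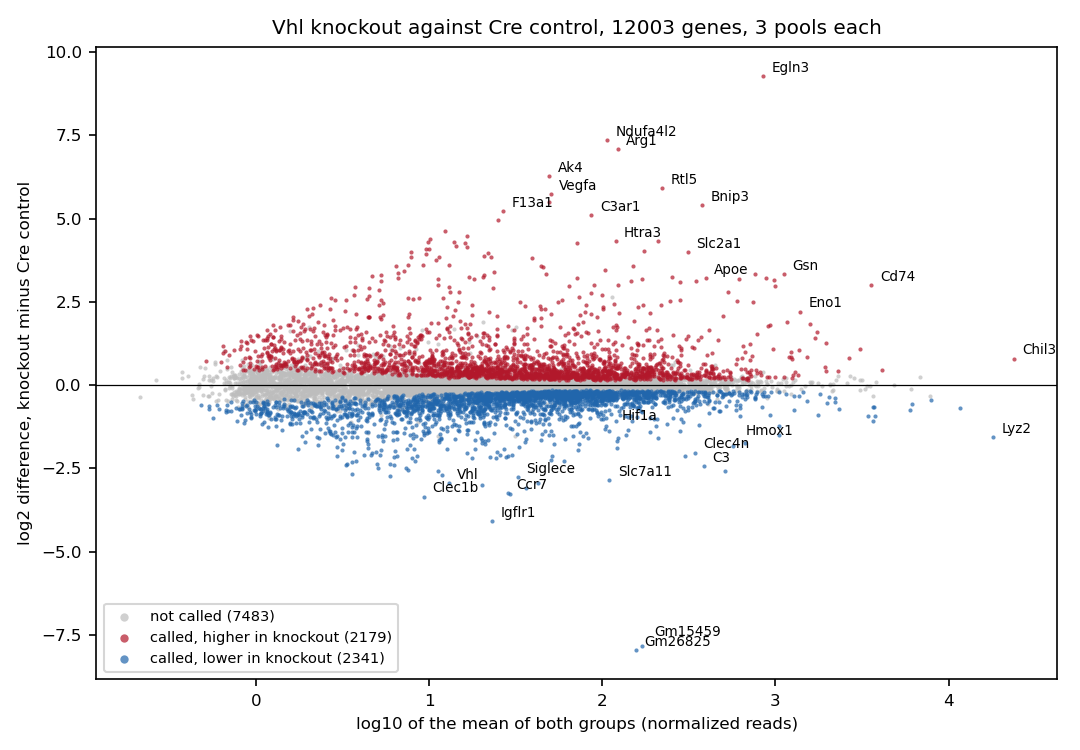
Log2 difference between knockout and Cre control macrophages (vertical axis) against the mean level of both groups on a log10 scale (horizontal axis, normalized reads), 1 point per gene. Red points are the 2179 genes called higher, blue points the 2341 called lower and grey points those not called. The points farthest above 0 lie farther out than those below it, with Gm26825 and Gm15459 as exceptions.

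Egln3, a prolyl hydroxylase that marks HIF for destruction, had the largest rise of all genes. It stood at 1609, 1603 and 1883 normalized reads in the knockouts and 1.57, 1.67 and 1.87 in the Cre controls (log2 difference 9.29, SE 0.0792, limma adjusted p = 1.73e-10). Ndufa4l2, which takes the place of a cytochrome oxidase subunit in low oxygen, stood at 222, 205 and 211 against 0.278, 0.209 and 0.452. Arg1, the arginase that splits arginine into urea and ornithine, stood at 244, 259 and 233 against 0.787, 0.837 and 0.791. All 3 genes were far higher in every knockout library than in any Cre control library. Their log2 differences were 7.35 for Ndufa4l2 and 7.09 for Arg1, and the floxed controls, with means of 2.42, 0.0683 and 1.01, lay with the Cre controls.

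Ak4, a mitochondrial adenylate kinase, stood at 100, 101 and 94.8 in the knockouts and 0.232, 0.366 and 0.226 in the Cre controls (log2 difference 6.29). Vegfa, the main growth factor for blood vessels, stood at 94.7, 98.5 and 107 against 1.71, 0.523 and 0.622 (log2 difference 5.74). Bnip3, a receptor that hands mitochondria to autophagy, stood at 697, 679 and 843 against 17.6, 15.7 and 15.5 (log2 difference 5.41). No knockout library came near a Cre control library for any of these 3. Rtl5, a gene derived from a retrotransposon on the X chromosome, rose from 6.21 ± 0.362 to 436 ± 27.4 (mean ± SD, n = 3 pools). Kcnj15, a potassium channel, rose from 1.17 ± 0.409 to 97.3 ± 8.92. F13a1, the A chain of coagulation factor XIII, rose from 0.448 ± 0.212 to 53.2 ± 10.02, and C3ar1, the receptor for the complement peptide C3a, from 3.95 ± 0.836 to 169 ± 17.4. The rest of the 15 largest rises were Nrbp2, Mgarp (a mitochondrial protein), Abcb4 (a phospholipid transporter), Colgalt2 (a collagen galactosyltransferase) and Htra3 (a secreted serine protease), with log2 differences of 4.32 to 4.96. Colgalt2 was at 0 in all Cre control and floxed control libraries and at 19.4, 17.9 and 22.99 in the knockouts, at least 105-fold higher when the lowest knockout library is set against 3 reads in a Cre control library.

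**Figure D2:**
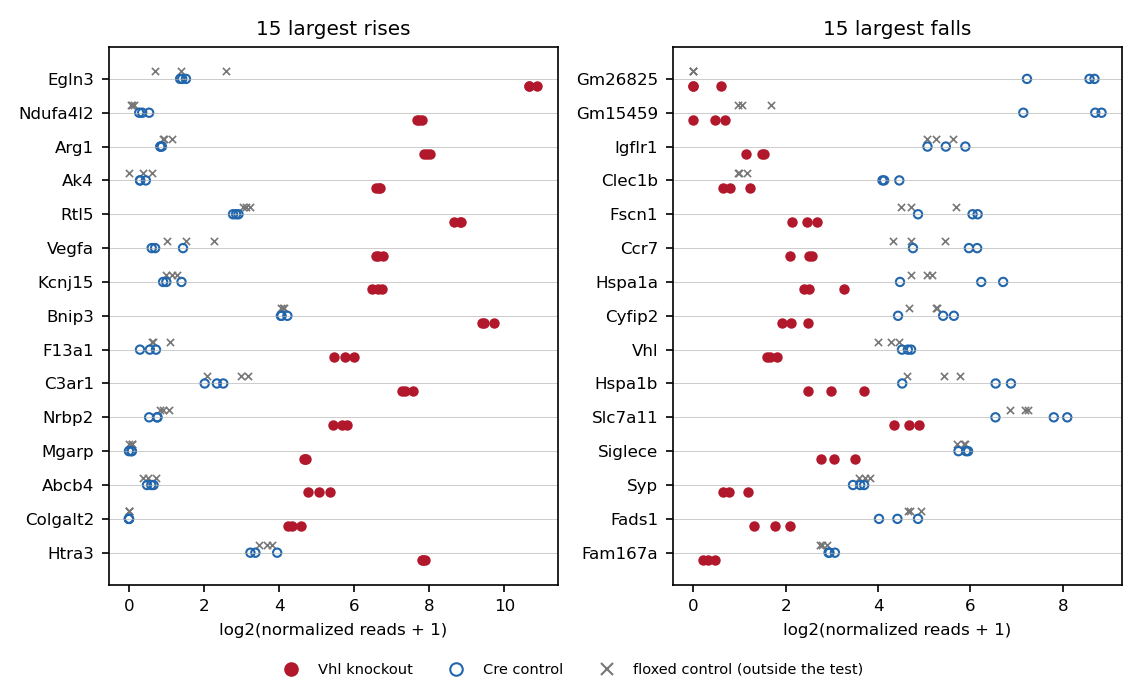
Levels of the 15 genes with the largest rises (left) and the 15 with the largest falls (right) in each library, as log2(normalized reads + 1). Red filled points are knockouts, blue open points Cre controls and grey crosses floxed controls, which were outside the test. Knockout and Cre control points do not overlap for any of these genes, as the rule that chose them required. The crosses lie with the Cre controls except for Gm26825, Gm15459 and Clec1b.

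Promoters of genes from this group are printed because HIF binds the core letters ACGTG or GCGTG, and the promoters show how such letters lie before genes with some of the largest rises. The stretches are the 250 bases before the start of each gene, 5′ to 3′ on the gene's strand, from the RefSeq promoter table (GRCm38). Capitals mark ACGTG or GCGTG on the strand shown and their reverse complements CACGT and CACGC. Pgk1 is shown as a glycolytic gene, and the other promoters are from the 15 largest rises. The windows are chr12:54203875-54204124 (minus strand) for Egln3, chr4:101419039-101419288 (plus) for Ak4, chr7:138909507-138909756 (minus) for Bnip3, chr3:51396548-51396797 (minus) for Mgarp and chrX:106186850-106187099 (plus) for Pgk1.
Egln3: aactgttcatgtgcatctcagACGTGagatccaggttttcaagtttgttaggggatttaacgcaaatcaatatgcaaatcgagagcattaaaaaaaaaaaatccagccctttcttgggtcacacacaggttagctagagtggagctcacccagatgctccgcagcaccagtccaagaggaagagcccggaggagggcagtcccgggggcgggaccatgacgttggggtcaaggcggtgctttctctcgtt
Ak4: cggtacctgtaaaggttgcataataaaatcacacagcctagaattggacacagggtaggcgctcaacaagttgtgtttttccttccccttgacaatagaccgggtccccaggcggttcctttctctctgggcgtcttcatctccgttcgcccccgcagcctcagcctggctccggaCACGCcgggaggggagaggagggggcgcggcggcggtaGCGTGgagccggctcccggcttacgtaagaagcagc
Bnip3: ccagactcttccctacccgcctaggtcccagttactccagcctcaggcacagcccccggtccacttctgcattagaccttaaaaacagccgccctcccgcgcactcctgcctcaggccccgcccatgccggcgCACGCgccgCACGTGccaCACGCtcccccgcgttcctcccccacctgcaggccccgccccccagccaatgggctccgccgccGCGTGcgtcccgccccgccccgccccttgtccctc
Mgarp: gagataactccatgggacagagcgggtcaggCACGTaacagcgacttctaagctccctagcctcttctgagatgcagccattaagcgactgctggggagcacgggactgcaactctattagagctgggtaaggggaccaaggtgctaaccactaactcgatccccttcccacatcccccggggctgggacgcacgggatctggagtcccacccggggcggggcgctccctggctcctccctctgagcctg
Pgk1: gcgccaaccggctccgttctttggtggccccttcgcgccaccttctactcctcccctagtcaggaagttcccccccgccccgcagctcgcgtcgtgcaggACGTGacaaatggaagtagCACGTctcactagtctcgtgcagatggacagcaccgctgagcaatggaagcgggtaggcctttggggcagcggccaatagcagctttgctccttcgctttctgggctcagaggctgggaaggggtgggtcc
In these windows Egln3 and Mgarp each held 1 match to ACGTG. Ak4 held 2 matches to GCGTG and Pgk1 2 to ACGTG. Bnip3 held 2 matches to ACGTG, which overlap because CACGTG reads the same on both strands, and 3 to GCGTG.

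Such letters were common in promoters of every kind. A promoter was matched for 9241 genes of the table. Counting 250 bases before to 50 after the start, either motif on either strand was found in 63.7% of these promoters, in 59.2% of those of genes called higher by at least 2-fold and in 48.1% of those of genes called lower by at least 2-fold. Either motif was also found in 43.8% of all 27025 promoters of the table. ACGTG alone was in 26.3% of measured genes, 29.7% of genes called higher and 14.9% of genes called lower by at least 2-fold. Among the lists counted, ACGTG was in 19 of 33 matched HIF targets outside metabolism (57.6%), 9 of 16 matched glycogen genes (56.2%), 15 of 30 matched glycolysis genes (50%), 11 of 39 matched DNA replication genes (28.2%) and 3 of 17 matched sterol synthesis genes (17.6%). Of the 15 largest rises, 11 had a promoter in the table and 6 of these held either motif. Vegfa, Kcnj15, F13a1, C3ar1 and Htra3 held neither in this window. A match is a description of letters, and no binding was measured.

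The falls were smaller and had more than 1 pattern. Igflr1, a receptor of the tumour necrosis factor receptor family, stood at 1.89, 1.79 and 1.1996 in the knockouts and 58.3, 32.6 and 43.2 in the Cre controls (log2 difference -4.09, SE 0.203, limma adjusted p = 2.61e-06). Siglece, an inhibitory sialic acid receptor, stood at 10.4, 7.3002 and 5.84 against 58.99, 52.5 and 60.8 (log2 difference -2.75). Fads1, the delta-5 fatty acid desaturase, stood at 3.303, 2.399 and 1.48 against 15.2, 28.1 and 20.4 (log2 difference -2.71). For these 3 genes every knockout library lay far below every Cre control library, and the floxed controls lay with the Cre controls. Syp, a vesicle membrane protein, and Fam167a fell in the same way, by 2.72 and 2.65 on the log2 scale.

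In another set of falls the Cre controls disagreed among themselves. Ccr7, the chemokine receptor that takes dendritic cells to lymph nodes, stood at 3.303, 4.901 and 4.72 in the knockouts, 26.02, 69.8 and 61.6 in the Cre controls and 42.4, 19.1 and 25.4 in the floxed controls. Fscn1, the actin bundling protein of mature dendritic cells, stood at 5.45, 3.37 and 4.48 against 28.2, 70.3 and 65.1, and the cystine transporter gene Slc7a11 at 28.5, 24.5 and 19.2 against 92.2, 273 and 223. Cre control library 1 was the lowest of its group for each of these and for Cyfip2, Hspa1a and Hspa1b, yet still above all 3 knockouts. Log2 differences were -3.23 for Ccr7, -3.27 for Fscn1, -2.85 for Slc7a11, -2.99 for Cyfip2 and -3.09 for Hspa1a. Hspa1a and Hspa1b are near-identical heat shock genes, and reads can be divided wrongly between such copies. The same holds for Chil3, C4b, the H2 genes, the Ifi200 family and Ighv1-72, which have close relatives, and for Gapdh and ribosomal protein genes with their pseudogenes. In bulk samples such as these, fewer cells of a type and less RNA per cell cannot be told apart.

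The lowest log2 differences belonged to an overlapping pair on chromosome 5, the long noncoding RNA gene Gm26825 and the processed pseudogene Gm15459. Gm26825 (5781530 to 5783636, plus strand) stood at 0, 0.511 and 0 in the knockouts and 149, 411 and 381 in the Cre controls, with floxed controls at 0, 0 and 0. Gm15459 stood at 0.386, 0 and 0.5998 in the knockouts, 140.5, 457 and 415 in the Cre controls and 2.23, 1.07 and 0.962 in the floxed controls. High levels were thus found in the Cre controls alone, although the knockouts carry the same Cre. Clec1b, a C-type lectin gene on chromosome 6, stood at 0.729, 1.33 and 0.5598 in the knockouts, 21.02, 16.5 and 16.1 in the Cre controls and 1.25, 0.973 and 0.962 in the floxed controls, so both groups with floxed Vhl alleles were low. The strand setting is not given in the labels or notes used here. Reads of genes that overlap a measured gene, such as this pair, Clec1b with Clec9a, Ndufa4l2 with Shmt2, Rtl5 with Nhsl2, Gys1 with Ruvbl2, Tpi1 with Spsb2, Ciita with Dexi or Irf5 with Tnpo3, can therefore not be cleanly told apart.

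In normalized reads the largest rise was in Chil3, a chitinase-like protein made in large amounts by alveolar macrophages. Chil3 stood at 38057, 25432 and 27436 in the knockouts and 18477, 15661 and 17402 in the Cre controls, and knockout library 1 was well above the other 2. Next came Cd74, the invariant chain that escorts MHC class II molecules, at 6695, 6260.5 and 6119 against 1071, 542 and 832, and Trf, the iron carrier transferrin, which rose from 1988 ± 227 to 4167 ± 196. Gsn, the actin severing protein gelsolin, stood at 1928, 2035 and 2173 against 205, 191 and 212 (log2 difference 3.33). The largest absolute fall was in Lyz2, the lysozyme of macrophages, at 10371, 9152 and 8163 in the knockouts and 24653, 25729 and 30964 in the Cre controls. Groups did not overlap for any of these 5 genes. Psap, a lysosomal sphingolipid activator, fell from 7513 ± 915 to 4415 ± 135, and Ctsd, the lysosomal protease cathepsin D, from 9201 ± 752 to 6745 ± 389.5. The Ctsd call was lost under some alternative settings.

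Among the oxygen sensors, HIF subunits and their regulators, 6 of 14 measured members rose and 1 fell. The rises included the regulators Cited2 and Siah1a. Egln1, which encodes PHD2, the main hydroxylase of HIF, stood at 276, 294 and 300.1 in the knockouts and 53.7, 54.2 and 52.004 in the Cre controls (log2 difference 2.42). Hif3a, a HIF alpha chain that is itself induced by low oxygen, stood at 14.6, 16.6 and 15.5 against 0, 0.105 and 0. Hif1a moved the other way, at 63.4, 58.6 and 59.5 against 139, 176 and 161 (log2 difference -1.37, SE 0.0863, limma adjusted p = 1.03e-05). The mRNA of HIF-1 alpha was thus lower in every knockout library, and its protein was not measured. Epas1, which encodes HIF-2 alpha and was named after its values were seen, rose from 51.2 ± 11.7 to 70.9 ± 6.56, close to the threshold (limma adjusted p = 0.0430). The rises in this list numbered 4 to 6 when any 1 library was left out. Arnt, the partner of both, was not called (log2 difference 0.15), nor was the coactivator Ep300 (0.12).

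HIF targets outside metabolism rose as a group: 37 of 45 measured members rose and 2 fell, with a median log2 difference of 1.12, against 18.2% higher, 19.5% lower and a median of -0.00013 over all genes. Mif, the macrophage migration inhibitory factor, stood at 317, 312 and 292 in the knockouts and 35.01, 31.5 and 31.6 in the Cre controls (log2 difference 3.19). Ndrg1, a stress-response gene induced by low oxygen, stood at 156, 118 and 136 against 6.07, 5.91 and 6.22 (log2 difference 4.28), and Ankrd37 at 19.7, 20.3 and 19.03 against 0.232, 0.157 and 0.226. The groups were far apart for these genes, although Ndrg1 varied among the knockouts. The exceptions were Tfrc, the transferrin receptor, at 12.8, 13.2 and 11.96 against 21.4, 25.2 and 23.2, and Hmox1, the heme-degrading enzyme, at 218, 283 and 214 against 488, 1189.6 and 1013. Wsb1 and Bhlhe41 were not called, at log2 differences of -0.17 and -0.06. The list was written with known HIF targets and with earlier results of these data in view.

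Glycolysis followed: 23 of 31 measured genes rose and 2 fell, with a median log2 difference of 1.36. Slc2a1, the glucose transporter GLUT1, stood at 583, 563 and 616 in the knockouts and 33.2, 37.4 and 36.5 in the Cre controls (log2 difference 4.004). Tpi1, triosephosphate isomerase, stood at 1432, 1394 and 1357 against 138, 127 and 143 (log2 difference 3.35). Pgk1, phosphoglycerate kinase, stood at 1625, 1583 and 1595 against 162, 178 and 176 (log2 difference 3.21), with the promoter printed above. Eno1, enolase, rose from 492 ± 20.3 to 2277 ± 58.2. Each step from glucose entry to lactate export thus had at least 1 gene that rose, since Hk1 and Hk2 (hexokinase), Gpi1, Pfkl, Aldoa, Gapdh, Pgam1, Pkm, Ldha and the lactate exporter Slc16a3 all rose, with log2 differences of 1.27 (Aldoa) to 3.09 (Pfkl). These further genes were named after their values were seen. Slc2a6 and the low Eno2 fell (-0.74 and -0.78), and Pfkfb4 and the lactate carrier Slc16a1 were not called (-0.08 and -0.05).

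Glycogen genes rose in part, 8 of 19 against 1 that fell. Gys1, glycogen synthase, stood at 215, 221 and 227 in the knockouts and 30.1, 24.4 and 25.5 in the Cre controls (log2 difference 3.01). Pgm1, which links glycogen to glycolysis, stood at 122, 121 and 121 against 27.8, 26.8 and 27.1, and Ppp1r3b, a subunit that activates glycogen synthase, rose from 30.9 ± 0.864 to 114 ± 8.91. Pygl, glycogen phosphorylase, rose less, from 462 ± 8.73 to 819 ± 19.7, so genes for making and for breaking down glycogen were both higher. Gyg, the glycogenin primer, fell from 199.6 ± 10.1 to 125 ± 12.9, and the acid glucosidase gene Gaa was not called.

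The pentose phosphate pathway, which branches off glycolysis and makes NADPH, went down: 10 of 11 measured genes fell and none rose, at a median log2 difference of -0.37. H6pd, the endoplasmic reticulum form of its first enzyme, stood at 38.6, 40.9 and 39.4 in the knockouts and 60.2, 73.5 and 76.1 in the Cre controls. G6pdx, the cytosolic form, stood at 163, 166 and 159.7 against 219.7, 250.2 and 251, and Taldo1, transaldolase, at 521, 498 and 486 against 699, 691 and 711. Each gene was lower in every knockout library, by 0.48 to 0.80 on the log2 scale. Pgls, at a log2 difference of 0.23, was not called. These differences were small, and the count was 6 without knockout library 2, without knockout library 3 or without Cre control library 3.

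In the mitochondria, 9 of 13 genes of low-oxygen remodelling rose and 2 fell. Beside Ndufa4l2, Ak4 and Bnip3, Fam162a, a mitochondrial HIF target, rose from 18.1 ± 1.16 to 83.2 ± 1.53. Ndufa4, the regular subunit whose place Ndufa4l2 can take, stood at 24.9, 21.8 and 23.5 in the knockouts and 82.98, 80.6 and 81.3 in the Cre controls (log2 difference -1.76). The pair therefore moved in opposite directions in every library. Iscu, a scaffold for iron-sulfur clusters, fell from 56.6 ± 4.63 to 45.4 ± 1.65.

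Genes of the respiratory chain moved far less. Of 36 complex I subunits 6 fell and 1 rose, and of 36 subunits of complexes III to V, cytochrome c included, 8 fell and none rose, both near the 19.5% of all genes that were called lower. Without knockout library 2 the falls numbered 3 in complex I, as they did without knockout library 3, Cre control library 1 or Cre control library 3, and 5 in complexes III to V. The latter numbered 12 with no scaling factor. Ndufv3 rose from 38.3 ± 3.35 to 69.5 ± 0.949, Cox5a fell from 135 ± 4.41 to 91.1 ± 7.38 and Cycs, cytochrome c, from 30.5 ± 1.97 to 20.1 ± 2.59, while Ndufs1, Atp5a1 and Atp5b were not called. Mitochondrially encoded genes differed more: 10 of 13 fell, among them mt-Cytb at 2378, 1978 and 2719 in the knockouts and 5334, 4297 and 5171 in the Cre controls, and mt-Nd4 at 2618, 2256 and 2961 against 5187, 4448 and 5237. Summed over the 13 genes, knockouts held 20515, 17488 and 24345 and Cre controls 37370, 32063 and 36763. The floxed controls ranged more widely, at 55545, 29428 and 24498, the last close to knockout library 3. mt-Atp6 and mt-Co2 were not called (log2 differences -0.42 and -0.58), nor was mt-Co3, which stood at 175, 87.2 and 204 against 126, 88.5 and 0.113, near 0 in Cre control library 3 alone. In the tricarboxylic acid cycle 8 of 28 genes fell and 2 rose, with Sdhb, an iron-sulfur subunit of complex II, at log2 difference -0.46, the citrate synthase gene Cs at -0.31 and Idh2 at 0.34, and the count of falls was 4 without the intensity trend of the model and without knockout library 2, knockout library 3 or Cre control library 3.

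Sterol synthesis fell as a group, with 20 of 24 genes lower and none higher and a median log2 difference of -0.57. Cyp51, a lanosterol demethylase, stood at 49.1, 38.7 and 33.5 in the knockouts and 84.001, 128 and 114 in the Cre controls. Idi1 stood at 45.6, 38.2 and 36.1 against 72.9, 113 and 101, and Hmgcs1, the enzyme that feeds the mevalonate pathway, at 102, 89.3 and 88.7 against 143, 209 and 185. Cre control library 1 was again the lowest of its group but remained above the knockouts for all 3 genes. Ebp, a sterol isomerase, was not called, at a log2 difference of -0.20.

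Fatty acid synthesis split, with 7 of 21 genes higher and 10 lower. Acly, which makes cytosolic acetyl-CoA from citrate, stood at 1317, 1441 and 1445 in the knockouts and 396, 424 and 417 in the Cre controls (log2 difference 1.76). The stearoyl-CoA desaturases Scd1 and Scd2 rose, from 35.05 ± 2.37 to 105 ± 16.3 and from 138 ± 17.3 to 263 ± 23.6, and so did Acsl3 (log2 difference 2.12). Fads1, a desaturase that acts on polyunsaturated fatty acids, was among the largest falls of all genes. Fasn and Acaca, named after their values were seen, also fell (log2 differences -0.80 and -0.44).

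Of 34 genes for lipid uptake, storage and efflux 17 rose and 3 fell. Apoe, a carrier of exported cholesterol, stood at 811, 709 and 625 in the knockouts and 103, 69.2 and 61.5 in the Cre controls (log2 difference 3.21). Plin4 and Hilpda, proteins of lipid droplets, stood at 26.6, 15.9 and 14.3 against 0.3705, 0.157 and 0.226 and at 20.98, 23.1 and 27.6 against 4.08, 4.45 and 4.13, and Apoc1 rose from 4.62 ± 0.733 to 22.7 ± 0.0727. No libraries overlapped between the groups for these 4 genes. Lipa, the lysosomal lipase, fell from 1613 ± 223 to 949 ± 85.5 and Fabp5 from 392 ± 77.96 to 229.9 ± 27.7, the falls numbering 5 without Cre control library 1, while Cd36 and Lpl, which bring in fatty acids, were not called (0.27 and -0.32).

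Genes for surfactant breakdown moved both ways, 6 higher and 7 lower of 18. Smpd1, acid sphingomyelinase, rose from 27.6 ± 1.12 to 72.7 ± 5.64, and Pparg, Abcg1 and Csf2rb rose by 0.43, 0.42 and 0.25 on the log2 scale. The rises numbered 3 without knockout library 2. Pparg lies on chromosome 6, as Vhl does, and linked differences there are taken up below. Napsa, an aspartic protease, fell from 64.4 ± 2.39 to 32.2 ± 3.01 and Lpcat1, which remodels phosphatidylcholine, from 14.01 ± 3.53 to 3.86 ± 0.844. In fatty acid oxidation and peroxisomes 11 of 33 genes rose and 6 fell, with Scp2 highest in its group (log2 difference 0.96) and Hsd17b4 and Acaa2 among the falls (-0.74 and -0.59), and the gatekeeper Cpt1a was not called (0.02). The rises in this list numbered 6 without knockout library 3 and 7 without knockout library 1, Cre control library 2 or Cre control library 3.

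Proliferation genes were lower. For DNA replication 40 of 48 genes fell and 1 rose (median log2 difference -0.57), and for mitosis 38 of 45 fell and 1 rose (median -0.73). E2f2, a transcription factor of S phase entry, stood at 28.7, 28.8 and 27.8 in the knockouts and 50.9, 53.99 and 51.9 in the Cre controls. Mcm5, a subunit of the replicative helicase, stood at 29.3, 32.3 and 34.7 against 52.4, 67.96 and 57.3, and Ccnb1, the cyclin of mitotic entry, at 10.1, 11.6 and 9.16 against 19.5, 29.4 and 21.99. Knockout libraries were below every Cre control library for each. Kif20a, Bub1b and Kif2c, which act on the spindle and its checkpoint, fell by 1.17, 0.83 and 0.96 on the log2 scale. Gins2 (log2 difference 0.32) and Anln (0.40) rose, and E2f1, Pold1, Smc2 and Smc4 were not called. The Anln call was lost without knockout library 2. The falls numbered 33 to 42 of 48 and 33 to 41 of 45 when any 1 library was left out.

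Genes that restrain growth did not move as a block, with 7 of 28 higher and 6 lower, not far from the 18.2% and 19.5% of all genes. Mxi1, which opposes MYC and is induced by HIF, stood at 179.5, 179 and 189 in the knockouts and 73.3, 80.6 and 80.3 in the Cre controls. Ccng2 rose from 40.03 ± 0.818 to 84.6 ± 8.61 and Cdkn1b, the cell cycle inhibitor p27, from 60.8 ± 4.52 to 99.7 ± 9.64. Trp53 and Cdkn2c fell, by 0.40 and 0.57 on the log2 scale.

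Markers of alveolar macrophages were retained but not all at the same level: 9 of 35 rose and 12 fell, and the falls numbered 7 without knockout library 2. Cdh1, the adhesion molecule E-cadherin, stood at 277, 257 and 255 in the knockouts and 113, 94.5 and 96.6 in the Cre controls. Fcgr1, the high-affinity IgG receptor, stood at 25.4, 20.2 and 17.5 against 74.7, 62.4 and 63.99, and Flt1, a receptor for VEGF, at 515, 525 and 548 against 307, 255 and 281. Cdh1 and Flt1 were therefore higher and Fcgr1 lower in all knockout libraries. Siglecf fell by 0.67 on the log2 scale and Itgax, which encodes CD11c itself, by 0.39, from 2505 ± 353 to 1897 ± 75.7, a call lost under some alternative settings. The surface level of CD11c was not measured. Cd9 and Lpl were not called.

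Among transcription factors of identity and self-renewal 14 of 31 rose and 6 fell, and the falls numbered 3 without knockout library 3 or without Cre control library 3. Irf5, a driver of inflammatory polarisation, stood at 29.5, 30.2 and 27.99 in the knockouts and 89.9, 97.997 and 89.1 in the Cre controls (log2 difference -1.63). Cebpd, Nr1h3 (the oxysterol receptor LXR alpha) and Id2 rose by 1.33, 0.88 and 0.92, and Irf8 and Egr2 fell by 0.37 and 0.85 on the log2 scale. Spi1, which encodes PU.1, and Rxra were not called (-0.13 and 0.14). In GM-CSF, M-CSF and TGF-beta signalling 5 of 31 genes rose and 6 fell, shares near those of all genes. Cish, an inhibitor induced by STAT5, rose from 30.2 ± 3.81 to 69.6 ± 9.82, Smad6, an inhibitor of BMP signalling, from 1.55 ± 0.133 to 14.6 ± 2.72, and Tgfbr1 fell from 596 ± 7.64 to 347 ± 4.398. The receptor chain gene Csf2rb rose slightly (0.25), and Csf2ra and Tgfbr2 were not called.

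Genes of MHC class II presentation rose, 11 of 18 against 2 that fell. Ciita, the master regulator of these genes, stood at 123, 129 and 135 in the knockouts and 17.5, 9.16 and 13.7 in the Cre controls (log2 difference 3.21). H2-Aa stood at 1809, 1716 and 1719.8 against 309.7, 164 and 217, H2-Eb1 at 967, 928 and 888 against 176, 109 and 124, and H2-Ob at 18.9, 21.1 and 22.4 against 1.85, 1.52 and 1.75. The groups were far apart, and Cre control library 1 was the highest of its group for all 4 genes. The rises also took in genes that restrain presentation, H2-Ob, H2-Oa (1.07) and March1 (0.48). H2-Eb2 and Ifi30 fell (-0.85 and -0.30), and the protease gene Ctss and H2-DMa were not called. The 11 rises were kept in number with any 1 library left out.

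For MHC class I, 10 of 23 genes fell, 2 rose and 11 were not called, and the falls numbered 6 without knockout library 2 or without Cre control library 3. Nlrc5, the transactivator of class I genes, stood at 6.05, 4.34 and 3.599 in the knockouts and 14.4, 14.6 and 13.1 in the Cre controls, whereas the class I chain genes B2m and H2-D1 were not called (0.10 and 0.09). H2-T23 and H2-M3 rose (0.37 and 0.52). Of 18 genes listed as costimulatory or checkpoint genes 9 fell and 5 rose. The falls included Hvcn1 (-0.69), a proton channel gene that is neither. Cd86, a main costimulator of T cells, stood at 6.82, 8.93 and 9.12 against 22.9, 26.5 and 25.04, and Icosl at 17.5, 22.1 and 19.6 against 45.4, 44.7 and 46.5. Class II genes were thus up and Cd86 and Icosl down in the same libraries. Tnfsf9 and Vsir rose (1.64 and 0.63), and Cd274, which encodes PD-L1, and Sirpa were not called (0.05 and 0.00).

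Most interferon-stimulated genes were lower, with 29 of 43 down and 3 up. Summed over the list the groups overlapped, at 2014.5, 1907.6 and 1895.2 in the knockouts and 2017.45, 1856.86 and 1967.22 in the Cre controls. Ifit2, an antiviral RNA-binding protein, stood at 1.24, 2.09 and 1.399 in the knockouts and 7.22, 8.53 and 11.2 in the Cre controls (log2 difference -1.95). Mx1 stood at 0.429, 0.868 and 0.5598 against 3.01, 3.51 and 3.28, Ifi204, a DNA sensor, at 18.02, 13.7 and 17.4 against 31.3, 33.01 and 32.3, and Stat2 fell from 51.9 ± 1.23 to 37.4 ± 1.16. Every knockout library was below every Cre control library for these 4. Ly6e, Ifi203 and Samhd1 rose (0.51, 0.51 and 0.29), and Parp14 and Gbp7 were not called. The number of falls stayed between 23 and 28 when any 1 library was left out.

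Cytokine and chemokine genes were mostly lower or not called. Of 19 cytokines 9 fell and 1, Il15, rose (0.49), a call lost without knockout library 1. Tnf stood at 11.8, 6.89 and 7.88 in the knockouts and 28.9, 40.03 and 25.9 in the Cre controls, and Il12b at 0.515, 0.511 and 0.7597 against 4.12, 9.31 and 7.57. Of 18 chemokines 6 fell and none rose, among them Ccl5 at 2.27, 2.399 and 2.76 against 8.71, 9.78 and 11.4 and Cxcl16 at 10.1, 10.1 and 7.36 against 24.3, 35.3 and 33.7. Groups did not overlap for these 4 genes. Tgfb1, Il16, Ccl6 and Ccl9 were not called.

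Receptors for microbes moved in both directions. Of 27 Toll-like receptors and adaptors 9 fell and 3 rose: Tlr4, the endotoxin receptor, rose from 157 ± 4.32 to 227 ± 7.73 and Nlrp3 from 78.1 ± 11.8 to 127 ± 9.24, while Tlr7, Tlr8 and Unc93b1, which act on nucleic acids in endosomes, fell by 0.51, 0.46 and 0.36 on the log2 scale. Among C-type lectins and scavenger receptors 12 of 26 fell and 2 rose. Clec7a, the fungal glucan receptor dectin-1, stood at 624, 512 and 519.8 in the knockouts and 1642, 1503 and 1517 in the Cre controls (log2 difference -1.496). Clec4n, dectin-2, stood at 130.2, 132 and 142 against 493, 558 and 608 (log2 difference -2.02). Both receptors were lower in every knockout library, and Clec12a and Marco were the lectin and scavenger genes that rose (0.59 and 0.86). Mrc1 and Ly75 were not called.

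Among Fc gamma receptors the inhibitory and the high-affinity receptor moved apart. Fcgr2b, the inhibitory receptor, stood at 1049, 976 and 1042 in the knockouts and 188, 182 and 158 in the Cre controls (log2 difference 2.54). Fcgr3 and Fcgr4 rose slightly (0.36 and 0.28), Fcgr1 and the shared signalling chain Fcer1g fell (-1.64 and -0.21), and Fcgrt was not called. Of 8 Siglec genes 4 fell and 1, Cd33, rose (0.38), Mag and Cd22 falling beside Siglece and Siglecf. In the integrins 6 of 14 genes fell and 4 rose: Itgad stood at 185, 209 and 195 against 57.3, 22.7 and 33.2, Itgam rose from 32.4 ± 13.8 to 88.7 ± 14.98, and Itga4 and Itgal fell by 0.95 and 0.60 on the log2 scale, with Itgb2 and Itga5 not called. Receptors and bridges for apoptotic cells fell in 7 of 20 cases and rose in 3. Mertk, a kinase that binds bridged phosphatidylserine, fell from 379.9 ± 10.6 to 243 ± 9.89 and the purine receptor gene P2ry2 from 55.4 ± 7.83 to 21.8 ± 2.601, whereas Axl was not called (-0.19). Among arachidonic acid genes 10 of 24 fell and 3 rose, with the lipoxin and formyl peptide receptor gene Fpr2 at log2 difference -1.87, Ptgs1 (COX-1) at -1.49 and Cysltr1 at 0.89, while Alox5 and Alox5ap were not called.

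Complement genes changed in both directions. C3, the central component, stood at 95.7, 138 and 118 in the knockouts and 423, 647 and 897 in the Cre controls (log2 difference -2.42, SE 0.247, limma adjusted p = 1.62e-04). Cfb, factor B of the alternative pathway, stood at 89.7, 125 and 103 against 259, 520.0 and 708, and C4b, of the classical pathway, at 98.8, 64.9 and 60.02 against 3.75, 3.92 and 4.97. C3 and Cfb were lower, and C4b and the receptor gene C3ar1 higher, in every knockout library. In all 6 of 18 complement genes rose and 4 fell, and 2 fell when any 1 knockout library, or Cre control library 3, was left out.

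Coagulation and fibrinolysis genes rose in 10 of 15 cases and fell in 2. Beside F13a1, F10, coagulation factor X, stood at 456, 428 and 439 in the knockouts and 174, 159 and 175 in the Cre controls, and Thbd, the anticoagulant receptor thrombomodulin, at 106, 133 and 131 against 28.1, 35.6 and 33.6. Clotting and anticlotting genes were thus both among the rises. Procr, the protein C receptor, fell from 10.9 ± 1.95 to 1.73 ± 0.998, F3, tissue factor, from 4.29 ± 1.37 to 1.79 ± 1.23, and F7 was not called. The F3 libraries overlapped between the groups, and the call was lost under some alternative settings.

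Among vascular and matrix factors 10 of 26 rose and 6 fell. Adm, the vasodilator adrenomedullin, stood at 20.8, 20.3 and 18.03 in the knockouts and 0.0463, 0 and 0.113 in the Cre controls. Mmp12, macrophage elastase, stood at 204, 145 and 134 against 16.5, 24.4 and 16.4, and Tgfbi, a matrix protein induced by TGF-beta, at 329, 303 and 286 against 957, 1012 and 1115. The groups were separate for each, with Adm and Mmp12 higher and Tgfbi lower in the knockouts. Mmp14, Mmp19, Nrp2, Timp2 and Spp1 also fell, and Fn1 and Ctsk were not called. Collagen hydroxylases are oxygen-using enzymes of the endoplasmic reticulum. Counted with their partner proteins Crtap, which rose (0.69), and P4hb, which was not called, they rose in 7 of 9 cases. Plod2 stood at 30.03, 26.2 and 26.3 against 0.556, 0.314 and 0.452 and P4ha1 at 315, 318 and 296 against 60.4, 72.4 and 70.9, while P3h3 fell (-0.84). JmjC histone demethylases, which also use oxygen, rose in 8 of 24 cases and fell in 2. Kdm4b, which removes methyl groups from histone H3 lysine 9, rose from 19.4 ± 0.396 to 69.1 ± 2.83 and Kdm5b from 11.6 ± 0.649 to 28.7 ± 0.669. Hr fell by 2.25 on the log2 scale, and Kdm3b and Jmjd1c were not called.

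In arginine and polyamine metabolism the rise of Arg1 was not shared by most genes, since 5 of 22 rose and 6 fell. Slc7a2, the arginine importer CAT-2, stood at 2307, 2566 and 2941 in the knockouts and 818, 844 and 894 in the Cre controls (log2 difference 1.61). Gatm, which uses arginine for creatine, rose from 5.96 ± 1.01 to 20.04 ± 1.39 and the polyamine oxidase gene Smox from 17.4 ± 5.69 to 44.1 ± 1.78. Slc3a2 fell (-0.51), and Amd1 and Oaz1 of polyamine synthesis were not called.

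Iron and heme genes fell in 13 of 28 cases and rose in 4. Slc48a1, which moves heme out of the lysosome, stood at 104, 111 and 94.3 in the knockouts and 249, 291 and 284 in the Cre controls, and Alas1, the entry enzyme of heme synthesis, at 162, 153 and 148 against 346, 434 and 445. Flvcr1, a heme exporter, fell from 30.6 ± 1.82 to 13.3 ± 1.09. These 3 genes were lower, as was Hmox1. Trf, Steap3, Fbxl5 and Flvcr2 rose (1.07, 1.06, 0.61 and 0.39), and Ftl1 and Ncoa4 were not called.

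Stress programs were lower in several lists. For the NRF2, glutathione and thioredoxin genes 19 of 30 fell and 6 rose (median log2 difference -0.58). Txnrd1, thioredoxin reductase, stood at 104, 106 and 97.4 in the knockouts and 240.3, 395 and 319 in the Cre controls, while Mgst1 and Mgst3, membrane glutathione transferases, rose from 213 ± 12.1 to 460.0 ± 17.7 and from 63.96 ± 13.5 to 136 ± 5.55. Mgst1 lies on chromosome 6, and its floxed controls without Cre, at 359, 364 and 313, were nearer the knockouts than the Cre controls. Prdx5 and Gpx4 were not called. For ATF4 amino acid stress 13 of 24 fell and 4 rose, with the serine synthesis genes Phgdh at 103, 73.4 and 64.7 against 203, 199 and 200.4 and Psat1 at log2 difference -0.96, and the mitochondrial folate gene Mthfd2 at -1.67. Serine-making genes were lower in every knockout library, whereas Shmt2, which uses serine, rose (0.99) but overlaps Ndufa4l2. Heat shock chaperones fell in 12 of 21 cases and none rose. Apart from Hspa1a and Hspa1b these falls were small (Hspe1 -0.37, Hsf2 -0.55), and Hspa8 and Hsp90ab1 were not called. The count was 7 without the intensity trend and 6 without knockout library 2, knockout library 3, Cre control library 2 or Cre control library 3. It reached 15 at most when 1 library was left out.

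Immediate early genes, which respond within minutes to signals, rose in 11 of 27 cases and fell in 2. Ier3 stood at 75.9, 62.1 and 109 in the knockouts and 9.26, 4.45 and 4.75 in the Cre controls, and Jund and Maff rose by 0.59 and 0.68. Egr2 and Nr4a3 fell (-0.85 and -2.19), and Fos and Klf6 were not called (0.69 and 0.16). Protein folding in the endoplasmic reticulum had 9 of 28 genes lower, and Ero1l, an oxidase that HIF induces, rose from 99.5 ± 6.02 to 314 ± 25.5. The falls in this list numbered 4 without knockout library 2 or Cre control library 3, 5 without knockout library 3, Cre control library 2 or the intensity trend, and 14 without Cre control library 1.

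Of 38 proteasome subunits 31 fell and 1 rose, at a median log2 difference of -0.34. Psmc5, an ATPase of the regulatory particle, stood at 49.98, 47.5 and 46.8 in the knockouts and 72.8, 72.05 and 71.96 in the Cre controls, and Psmc2 at 73.8, 70.9 and 69.2 against 99.6, 112 and 109. Psmb6, a catalytic subunit, went against the rest, at 122, 122 and 119 against 83.2, 92.6 and 92.2. All 3 differences were small yet wider than the spread within either group. Psmb8 and Psmd8 were not called. The falls numbered 27 to 31 when any 1 library was left out.

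Cytosolic ribosomal proteins rose in 38 of 82 cases and fell in 2. Rpl10 rose from 471 ± 13.6 to 619 ± 33.7 and Rps26 from 212 ± 1.48 to 261 ± 8.77, while Rps27l fell from 57.4 ± 1.22 to 42.7 ± 2.63. The rises numbered 30 with no scaling factor, 23 without the intensity trend, 19 without knockout library 1 and 17 without Cre control library 2 or Cre control library 3, so this count rests on small differences. Mitochondrial ribosomal proteins fell in 9 of 77 cases (11.7%), fewer than the 19.5% of all genes, and in 5 without knockout library 2 or knockout library 3. Lysosomal genes fell in 24 of 51 cases and rose in 5. Atp6v1e1, a proton pump subunit, stood at 133, 121 and 124 in the knockouts and 238, 253 and 267 in the Cre controls, Ctsh fell by 0.48 on the log2 scale, Smpd1 and Ctsa rose (1.36 and 0.40), and Ctss was not called. Atp6v1e1 lies on chromosome 6 within 10 Mb of Vhl. Its floxed controls without Cre, at 129.7, 140.3 and 118, were nearer the knockouts than the Cre controls. The lysosomal falls numbered 15 without Cre control library 3.

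**Figure D3:**
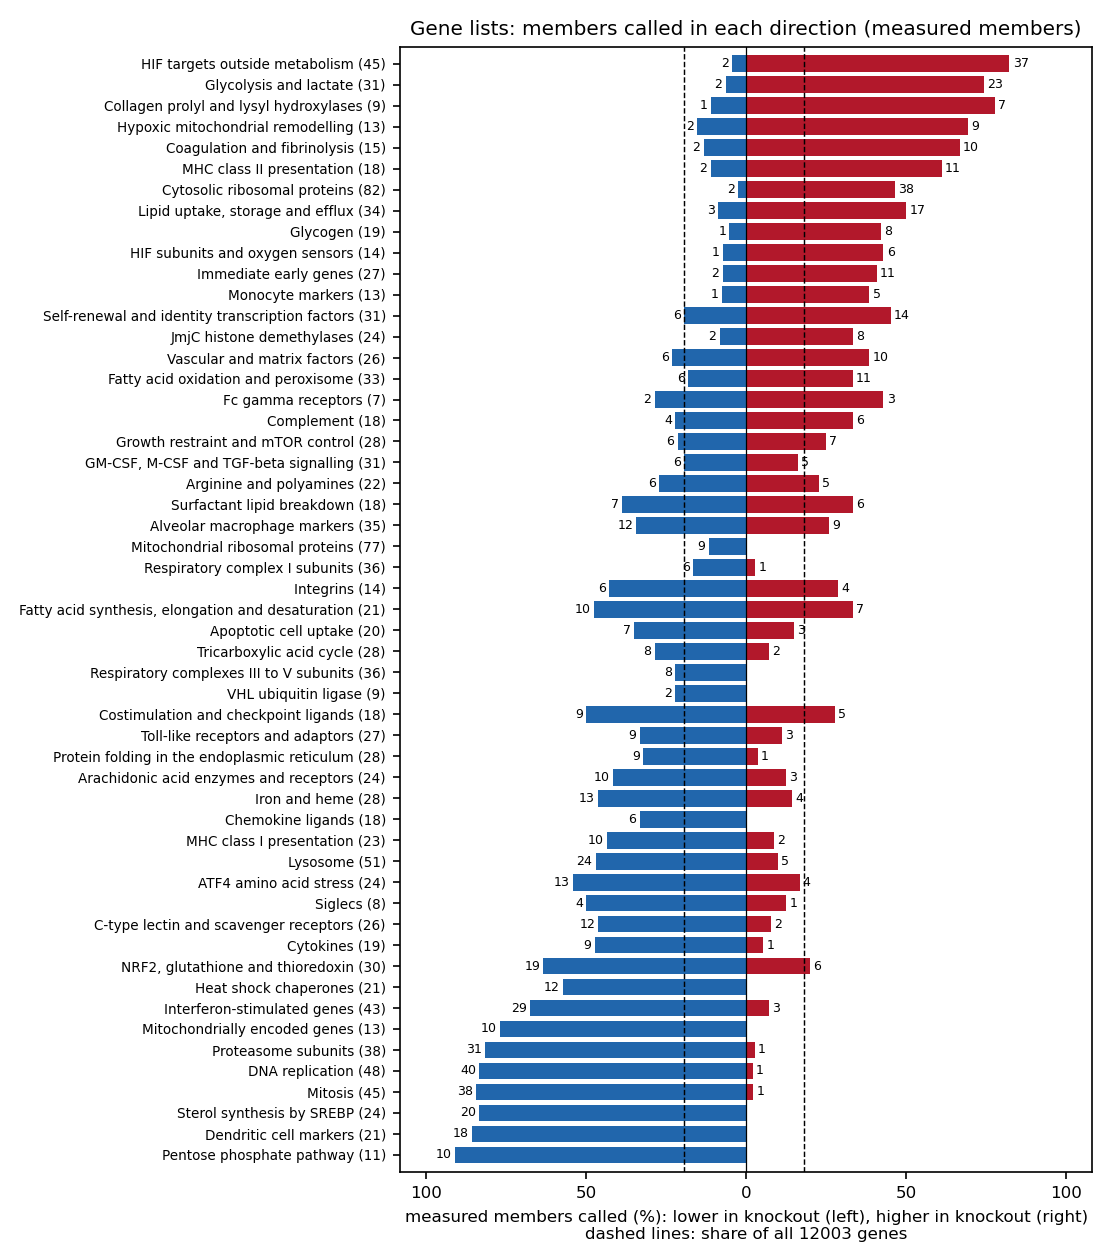
Share of the measured members of each gene list that limma called lower (blue, left) or higher (red, right) in the knockouts, with the number of members at each bar and the number measured in parentheses. Dashed lines mark the shares over all 12003 genes, 19.5% lower and 18.2% higher. HIF targets and glycolysis lie at the top, and the pentose phosphate pathway, dendritic cell markers, sterol synthesis and cell cycle lists at the bottom.

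Among markers of other cell types, the dendritic cell list was lower, and most other lists were mixed or had few calls. Of 21 dendritic cell markers 18 fell and none rose (median log2 difference -1.04), and 17 or 18 fell with any 1 library left out. Cacnb3, high in mature dendritic cells, stood at 2.32, 2.195 and 2.56 in the knockouts and 12.04, 25.2 and 22.8 in the Cre controls, Traf1 at 3.35, 2.604 and 2.44 against 9.86, 15.1 and 15.5, and Clec9a, of the cross-presenting type, at 0.515, 0.613 and 0.8397 against 4.12, 4.45 and 3.34. Cre control library 1 was the lowest of its group for Cacnb3 and Traf1 but not for Clec9a, which overlaps Clec1b. Clec9a also lies on chromosome 6, with floxed controls at 1.903, 1.13 and 1.92, nearer the knockouts than the Cre controls. The summed level of the list was 656.9 to 812 in the knockouts and 755.5 to 1107 in the Cre controls, most of it from Ly75, which was not called, and no marker was at 0 in any library. The part of dendritic cell numbers in the falls of Ccr7, Fscn1, Il12b, Ccl17, Flt3 and Cd86 was not tested. Monocyte markers rose in 5 of 13 cases and fell in 1: Ace rose from 67.4 ± 5.33 to 169 ± 10.7 and Ccr2 from 21.7 ± 0.896 to 39.7 ± 2.2995, Treml4 fell from 84.7 ± 24.5 to 17.97 ± 2.09, and the summed level was 28617 to 40619 in the knockouts against 17826 to 20464 in the Cre controls, most of it from Chil3. Interstitial macrophage markers summed to 820.5 to 1030 in the knockouts and 244.7 to 278 in the Cre controls, most of it Apoe. Of 14 such markers 3 rose, Apoe, Tmem119 and Cd83, and Ms4a7 fell, so 28.6% were called against 37.7% of all genes. The complement genes C1qa, C1qb and C1qc stayed low and were not called.

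Some genes of airway secretory cells and of plasma cells also separated the groups, and their lists were written after the values had been seen. Of 11 airway secretory genes 6 fell and 0 rose, and of 7 measured plasma cell genes 4 rose and 0 fell. Bpifa1, a secreted airway defence protein, stood at 137, 98.3 and 222 in the knockouts, 822, 826 and 973 in the Cre controls and 479.5, 159 and 132 in the floxed controls. Scgb1a1, the club cell secretory protein, stood at 46.1, 26.5 and 49.2 in the knockouts, 114, 97.1 and 134 in the Cre controls and 134, 44.9 and 22.5 in the floxed controls, and Cyp2f2 at 36.6, 21.6 and 42.5 in the knockouts, 98.1, 106 and 136 in the Cre controls and 159, 44.8 and 28.5 in the floxed controls. The Cre controls were high in these genes in all 3 libraries, and among floxed controls library 1 was the highest. Summed over 11 such genes the level was 599.1, 306.9 and 646 in the knockouts and 1488, 1287 and 1651 in the Cre controls. The floxed controls summed to 1790, 1004 and 404, so floxed library 3 lay within the range of the knockouts. Igha and Jchain went the other way: Igha stood at 57.4, 26.1 and 47.3 in the knockouts, 1.44, 1.52 and 3.11 in the Cre controls and 206, 17.1 and 28.6 in the floxed controls, and Jchain at 11.2, 5.97 and 10.6 in the knockouts, 0, 0 and 0.113 in the Cre controls and 42.02, 2.61 and 6.3004 in the floxed controls. Floxed control library 1 was again the highest. B cell markers were nearly absent, since Igkc and Ighm were the 2 measured of 8, and Ighv1-72 was at 0 in all Cre controls and at 1.501, 0.562 and 8.797 in the knockouts. Igkc rose (log2 difference 3.62), and Ighm was not called (-0.09). These genes mark cells other than macrophages, and the part of such cells in other results was not tested.

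**Figure D4:**
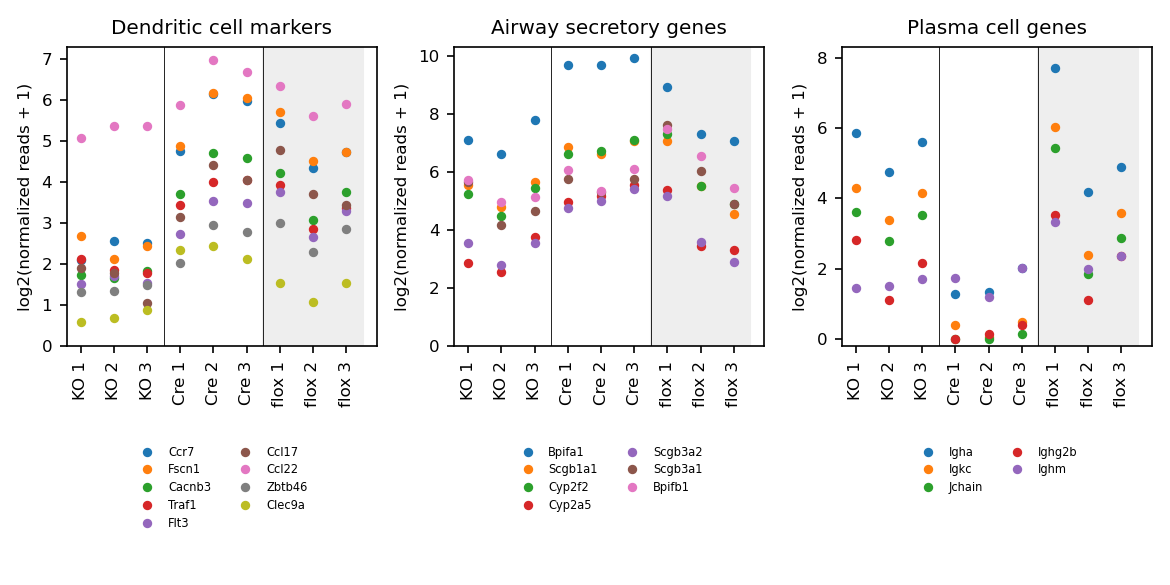
Levels of dendritic cell markers (left), airway secretory genes (middle) and plasma cell genes (right) in each library as log2(normalized reads + 1), 1 point per gene and library. Knockouts (KO) are followed by Cre controls (Cre) and, on grey, floxed controls (flox). Dendritic and airway secretory genes lie lower and Igha, Igkc and Jchain higher in the knockouts than in the Cre controls.

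Further marker lists gave few calls. Of 8 neutrophil markers only Mmp8 was called, and the count of rises was 4 without Cre control library 1 and 0 without Cre control library 2 or Cre control library 3. The list ranged widely between pools, with a summed level of 238.8 to 673 in the knockouts and 196.8 to 601 in the Cre controls. Of the T and NK cell markers Klrb1c and Cd8a rose at low levels, and Cd2 fell (-0.40). Klrb1c, on chromosome 6, stood at 2.02, 1.17 and 1.399 in the knockouts and 0.185, 0 and 0.1696 in the Cre controls, but at 4.51, 2.97 and 3.13 in the floxed controls without Cre, above every knockout library. Cd8a, also on chromosome 6, stood at 0.643, 1.28 and 0.7597 in the knockouts, 0.232, 0.0523 and 0.113 in the Cre controls and 2.07, 1.13 and 1.01 in the floxed controls. Of 18 lung epithelial markers 6 fell, among them Sftpa1 (-1.28) and Scgb3a2 (-1.76), and 3 rose, Cdh1, Hopx (1.67) and Krt19 (0.78). None of the 4 measured hemoglobin genes was called, with log2 differences of -1.53 to -1.101, but 2 of them were called lower without knockout library 1. Xist, made from the inactive X chromosome, stood at 286 to 436 in the knockouts and 210.2 to 315 in the Cre controls.

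Genes near Vhl were called somewhat more often than others. The floxed alleles differ between knockouts and Cre controls, and the chromosome around them may differ too, which the labels do not give. Any linked differences and effects of Vhl loss can therefore not be told apart there from this comparison alone. Within 10 Mb of Vhl 50 of 93 genes (53.8%) were called, 22 higher and 28 lower, against 37.7% over all genes. Chromosome 6 had 257 of 572 genes called (44.9%), and the other autosomes 31.6% to 41.8%. Floxed controls share the floxed alleles and lack Cre, so their values bear on the difference. Among all called genes the floxed mean was nearer the knockout than the Cre control mean, on the log2 scale, for 413 of 4520 (9.14%). On chromosome 6 this held for 46 of 257 (17.9%), within 10 Mb of Vhl for 12 of 50 (24.0%) and farther than 20 Mb from Vhl, other chromosomes included, for 391 of 4427 (8.83%). No test was made of these shares.

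**Figure D5:**
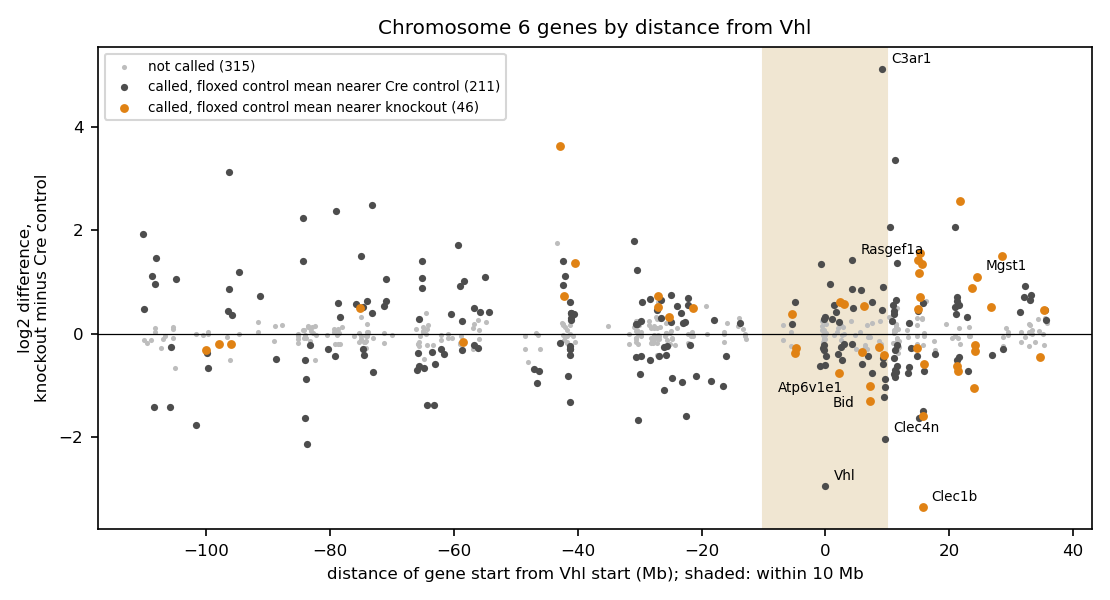
Log2 difference between knockout and Cre control for the genes of chromosome 6 (vertical axis) against the distance of each gene's start from the start of Vhl in megabases (horizontal axis). Grey points were not called, dark points were called with floxed controls nearer the Cre controls, and the 46 orange points were called with floxed controls nearer the knockouts. Orange points are more frequent to the right of Vhl, among them Clec1b, Bid and Atp6v1e1.

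Named neighbours showed both patterns. Atp6v1e1, at 133, 121 and 124 in the knockouts and 238, 253 and 267 in the Cre controls, stood at 129.7, 140.3 and 118 in the floxed controls. Bid, a trigger of apoptosis, stood at 5.06, 3.47 and 2.96 in the knockouts, 10.3, 11.1 and 10.7 in the Cre controls and 5.93, 4.402 and 3.85 in the floxed controls, and overlaps Bcl2l13. For both genes the floxed libraries without Cre overlapped the knockouts and lay below every Cre control library. By contrast C3ar1, Clec4n, Clec4a2, Rasgef1a and Srgap3, which also lie within 10 Mb of Vhl, had floxed means of 6.03, 475, 95.9, 1.55 and 7.995, nearer the Cre control means of 3.95, 553, 99.1, 1.56 and 7.25. Of the genes called by at least 2-fold, the floxed mean was nearer the knockout for 14 of 60 on chromosome 6 (23.3%) and 38 of 731 elsewhere (5.20%). Emp1, a membrane protein on chromosome 6 named after its values were seen, lay between, at 484 ± 36.5 in the knockouts, 81.9 ± 14.5 in the Cre controls and 211 ± 18.8 in the floxed controls.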

How the data were processed

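RNA of 9 pools was sequenced as single reads of 61 bases, per the labels' protocols. CASAVA 1.8.2, cutadapt 1.3, RSEM 1.2.3 and the GRCm38 build are named in the submitters' processing notes; neither strand setting nor annotation is given in the labels or notes. The deposited values are a signal: each is a whole number of reads times 1 factor per library (100% whole within 0.01 read), and the authors' factors matched edgeR's TMM factors to 5 significant digits or better. Every gene reached 0.962 in at least 3 of the 9 libraries, so rarer transcripts are not analysed here. Libraries held 18201116 to 25861174 reads, and 3 reads, the limit that a count of 0 allows, are 0.120 to 0.170 normalized reads. This covers counting error only.

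GENCODE M21 named 11935 genes. Limma 3.58.1 in R 4.3.3 was fitted to log2(value + 1) of the 6 libraries with an intensity trend and no filter, with two-sided tests and Benjamini-Hochberg adjustment over 12003 genes. On the recovered whole reads edgeR 4.0.16 called 4461 genes and DESeq2 1.42.0 called 4233. The model was also run on simulated counts with the same dispersion for every gene and few changed genes. That setting is simpler than these data, so the run does not measure how many calls here are right. Members and gene lists were chosen with earlier results of these data known. Named genes are Vhl, the 15 largest rises and falls without overlap and with a mean of at least 5, the 5 largest rises and falls in normalized reads, called genes with 1 group at 0, from each list up to 4 called members of smallest adjusted p, up to 2 well expressed members not called and those against the majority, and the 8 largest changes within 10 Mb of Vhl. Other genes were chosen after their values were seen. The airway secretory and plasma cell lists were too. Promoters are the first entry per gene in the RefSeq table.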

Additional observations from a re-analysis of the deposited data

How the results depend on the processing

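Calls numbered 4212 (no intensity trend) to 4572 (replicate block) under the 9 alternatives that kept all 6 libraries, and 0 genes shared with the reported calls changed direction under any of them or with 1 library left out. With 1 library left out, calls numbered 3360 (without Cre control library 3) to 4667 (without Cre control library 1), calls higher 1703 to 2278, calls lower 1652 to 2389, calls of at least 2-fold 763 to 898 (472 to 533 higher and 291 to 365 lower), and the log2 difference of Vhl was -3.004 to -2.89. A pseudocount of 5 left 435 genes called by at least 2-fold, 292 higher and 143 lower, since it shrinks the change of low genes. On whole reads edgeR called 474 and DESeq2 484 genes lower by at least 2-fold. Counting ACGTG alone took the share of promoters with a motif among genes called higher by at least 2-fold from 59.2% to 29.74%. No scaling factor lowered the share of calls that were higher from 48.2% to 43.3%. Of 341 named genes that were called, 308 kept the call under every alternative, 33 lost it under at least 1 and 0 reversed.

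Libraries with the same replicate number deviated together with correlations of 0.323, 0.223 and 0.0462 over genes, not every library correlated best with its own number, and the labels give no pairing, so the numbers were not used to pair. With the replicate block limma called 4572 genes, 2209 higher and 2363 lower, 4241 of them shared with the unblocked calls. The block called 4 neutrophil markers higher in place of 1, and 4 hemoglobin genes lower in place of 0.

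Depth limits low genes: 23% of genes with a mean under 1 normalized read were called. Each group is 3 pools, and cell composition was not measured.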
